A study of Mus musculus with 8 samples.

Results

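The endoplasmic reticulum stress sensors Eif2ak3, Ern1 and Atf6 were examined together with their target Xbp1, the chaperones Hspa5, Hsp90b1 and Sdf2l1, the oxidases Ero1l and Ero1lb, and the degradation factor Herpud1. These are 10 of the 35944 genes in the table, and all 10 were counted highly enough to be among the 10361 genes tested. The RNA came from mouse buffy coat, the layer of white cells and platelets between plasma and red cells. Exposure lasted 24 weeks, to PM2.5 (particles small enough to reach the alveoli) in 4 libraries and to PBS, a buffered salt solution, in the 4 control libraries. The PM2.5 libraries carry the numbers 9, 17, 18 and 21 in their labels, and the PBS libraries the numbers 4, 10, 12 and 16. The labels name no strain, age, dose or route. The 10 genes were chosen by their roles and by the PM2.5 and PBS values of these libraries, above all the low Eif2ak3 and Ero1lb counts with PM2.5. Their differences between the groups are therefore given as a description. Where the text says that the fit over all genes called one of them, this too describes the libraries the choice rested on and supports nothing.

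Secreted and membrane proteins fold in the endoplasmic reticulum, and unfolded protein there is sensed by PERK (encoded by Eif2ak3), IRE1 (Ern1) and ATF6. PERK slows translation by phosphorylating eIF2, IRE1 splices the Xbp1 mRNA in the cytoplasm, and ATF6 is cut by proteases in the Golgi to release a transcription factor. Together they raise chaperones, folding oxidases and degradation factors, and plasma cells, which secrete antibody, depend on the IRE1 and XBP1 branch.

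Libraries held between 72081019 and 89032794 expected counts, of which haemoglobin genes took 82.3% to 88.6%, leaving 9637639 to 12752766 for all other genes. Levels below are CPM, the counts of a gene relative to its library's total, haemoglobin included, after TMM scaling (trimmed mean of M values). FPKM values, which also divide by transcript length, serve mainly to compare genes with each other. Whether the libraries are separate animals is not stated in the labels, so errors and p-values measure the spread between these libraries. Of all genes tested with edgeR at an adjusted p of 0.05, 118 were lower with PM2.5 (1.14%) and 48 were higher (0.463%). Scaling to library totals turned this split into 475 lower and 8 higher and moved the median log2 fold change of all genes to -0.52, against 0.04 with TMM. With haemoglobin removed before scaling to totals, 216 were lower and 10 higher, at a median of -0.30. PM2.5 replicates 17 and 18 also stood apart in several genes of neurons and astrocytes. Camk2a, a synaptic kinase, was at 1.43 and 1.79 CPM there and at no more than 0.0373 CPM in the other 6 libraries, and Slc1a2, a glutamate transporter of astrocytes, at 1.01 and 1.09 CPM against at most 0.0915 CPM. The synaptic Snap25 was at 0.531 and 0.537 CPM against at most 0.0274 CPM, Syt1 at 0.367 and 0.481 CPM against at most 0.00933 CPM, and the neuronal Map2 at 0.403 and 0.389 CPM against at most 0.0818 CPM. Mog, of myelin, had 0 counts in all 8 libraries. The 12 neuronal and glial markers summed to 42.7 to 79.4 CPM with PM2.5 and 31.6 to 60.7 CPM with PBS.

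Of the 10 genes, 2 were among those that edgeR called lower with PM2.5, beside 1.14% of all genes tested, and 0 were among those called higher, beside 0.463%. These 2 are Eif2ak3 and Ero1lb, whose low values were known when the list was made, so nothing is read from the count. In TMM-scaled CPM, all 4 PM2.5 libraries lay below all 4 PBS libraries for Eif2ak3, Ero1lb, Hspa5 and Herpud1, beside 6.64% of all genes tested. The groups overlapped for the other 6. In FPKM, which carry no TMM scaling, Hspa5 and Herpud1 overlapped between the groups as well, through PBS replicate 12. For 0 of the 10 did all PM2.5 libraries lie above all PBS libraries, beside 3.02%. The median log2 fold change of the 10 was -0.23, and 8 of the 10 were negative, beside 45.6% of all genes tested.

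**Figure D1:**
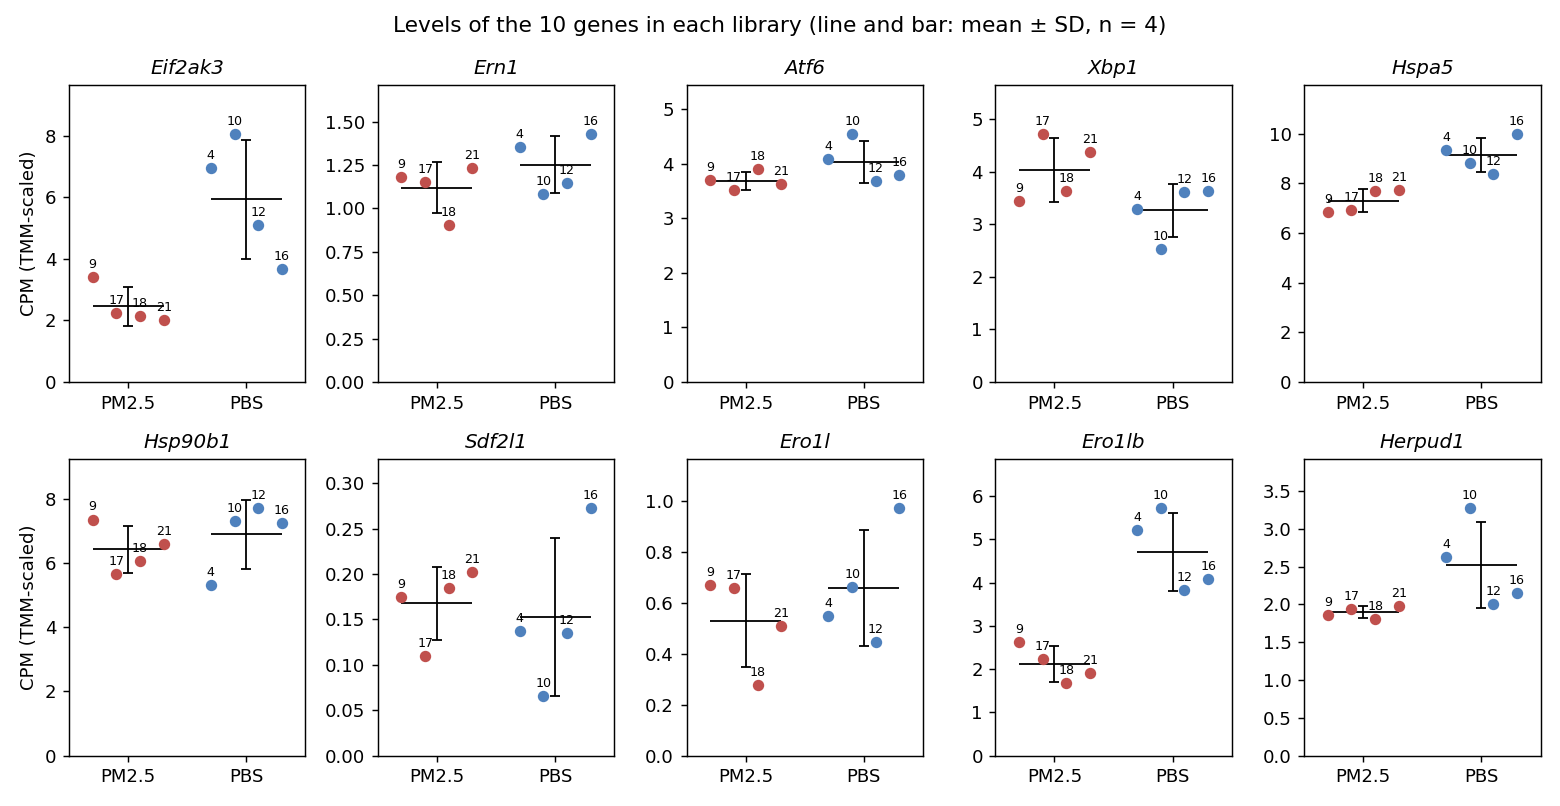
Each panel shows 1 gene, with CPM of the TMM-scaled libraries on the vertical axis, PM2.5 libraries on the left and PBS libraries on the right, numbered as in their labels; lines and bars are the mean ± SD (n = 4). Eif2ak3 and Ero1lb are the panels where the group means lie furthest apart, while Ern1, Atf6, Xbp1, Hsp90b1, Sdf2l1 and Ero1l overlap between groups.

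Among the sensors, Eif2ak3 was lower with PM2.5, and Ern1 and Atf6 differed little between the groups. Eif2ak3 (chromosome 6, 70844515 to 70905245, GRCm38) was at 3.41, 2.24, 2.15 and 2.02 CPM in PM2.5 replicates 9, 17, 18 and 21, against 6.95, 8.05, 5.09 and 3.68 CPM in PBS replicates 4, 10, 12 and 16. The groups came close without overlapping, since PM2.5 replicate 9 stood above the other 3 PM2.5 libraries and PBS replicate 16 was the lowest control. The log2 fold change was -1.27 (SE 0.229), the means being 2.45 ± 0.644 CPM in the PM2.5 libraries and 5.94 ± 1.94 CPM in the PBS libraries (SD, n = 4 each). Without PBS replicate 10, where edgeR no longer called it, the log2 fold change was -1.11. Without PM2.5 replicates 17 and 18, those with the neural transcripts, it was -1.11 and again not called, in a fit that called only 8 of all genes. Without PM2.5 replicates 9 and 21 instead, it was -1.46 and called, in a fit that called 189.

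Ern1 (chromosome 11, 106394650 to 106487852) was at 1.18, 1.15, 0.907 and 1.24 CPM in the PM2.5 libraries, against 1.35, 1.08, 1.15 and 1.43 CPM in the PBS libraries, in the same order of replicates. These values overlapped, and the log2 fold change was -0.16 (SE 0.186). Atf6 (chromosome 1, 170704674 to 170867771) was the steadiest of the sensors, at 3.71, 3.52, 3.90 and 3.63 CPM with PM2.5, against 4.10, 4.54, 3.69 and 3.79 CPM with PBS. Its log2 fold change was -0.13 (SE 0.143), and its coefficient of variation was 4.39% within the PM2.5 group and 9.54% within the PBS group. Eif2ak3 varied by 26.3% within the PM2.5 group and 32.7% within the PBS group, so it was the most variable sensor as well as the one furthest apart.

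Ratios within a library do not depend on how libraries are scaled. Counts of Eif2ak3 were 0.550 to 0.919 of those of Atf6 in the PM2.5 libraries, and 0.971 to 1.77 of those of Atf6 in the PBS libraries. PM2.5 replicate 9 at 0.919 and PBS replicate 16 at 0.971 again bordered each other. The ratio of Eif2ak3 to Ern1 counts was 1.63 to 2.88 in the PM2.5 libraries and 2.58 to 7.44 in the PBS libraries, and PBS replicate 16 fell inside the PM2.5 range.

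Xbp1, the transcription factor that IRE1 activates, was on the higher side with PM2.5 under TMM scaling. It was at 3.44, 4.71, 3.63 and 4.38 CPM in PM2.5 replicates 9, 17, 18 and 21, against 3.29, 2.53, 3.60 and 3.62 CPM in PBS replicates 4, 10, 12 and 16. The groups overlapped through PM2.5 replicate 9, and the log2 fold change was 0.31 (SE 0.165). Under scaling to library totals it was -0.26, which is 0.27 above the median of all genes in that scaling. Relative to Hspa5, Xbp1 counts were 0.472 to 0.678 in the PM2.5 libraries and 0.286 to 0.431 in the PBS libraries, with no overlap.

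IRE1 removes a short segment from the coding sequence of the Xbp1 mRNA, and the removal changes the reading frame. The segment is shown because Xbp1 splicing, rather than Xbp1 level, reports IRE1 activity. In the leading transcript, Xbp1-201 (GENCODE M21), 2 copies of the motif CNGCAGN lie around it. The stretch below is chr11:5524249-5524334, plus strand, GRCm38, with the 26 bases that IRE1 removes in capitals.
Xbp1-201: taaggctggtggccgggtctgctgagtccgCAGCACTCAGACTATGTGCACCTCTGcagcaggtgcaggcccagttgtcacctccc
Of the 4 annotated Xbp1 transcripts, 3 held this segment and 0 had its flanks joined, so the deposited transcript counts do not separate spliced from unspliced Xbp1. Xbp1-201 took 91.4% ± 4.50 of the Xbp1 counts in the PM2.5 libraries and 88.1% ± 3.46 in the PBS libraries (SD, n = 4 each).

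Of the chaperones, Hspa5 was somewhat lower with PM2.5 and Hsp90b1 was close between the groups. Hspa5 encodes BiP, the main Hsp70 of the endoplasmic reticulum, which also holds the sensors inactive. It was at 6.86, 6.95, 7.68 and 7.74 CPM in PM2.5 replicates 9, 17, 18 and 21, against 9.36, 8.83, 8.37 and 9.98 CPM in PBS replicates 4, 10, 12 and 16. In CPM, every PM2.5 library was below every PBS library, with coefficients of variation of 6.43% within the PM2.5 group and 7.56% within the PBS group. The log2 fold change was -0.32 (SE 0.150). In FPKM, PM2.5 replicates 9 and 21 (3.28 and 3.48) were above PBS replicate 12 (2.97), so the separation depends on the scaling. Hsp90b1, the Hsp90 of the endoplasmic reticulum (GRP94), was at 7.36, 5.66, 6.07 and 6.60 CPM with PM2.5, against 5.30, 7.30, 7.71 and 7.26 CPM with PBS. PBS replicate 4 was the lowest of all 8 libraries and PM2.5 replicate 9 was among the highest, and the log2 fold change was -0.10 (SE 0.164). Sdf2l1, a partner of the DNAJB11 co-chaperone, had only 6 to 17 counts per library with PM2.5 and 7 to 30 with PBS. At that depth its log2 fold change of 0.14 had an SE of 0.463, so the sign of any difference was not settled.

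Many chaperone genes carry the endoplasmic reticulum stress element (ERSE), which ATF6 binds together with NF-Y. Searched on both strands were CCAAT and CCACG with 9 bases between them (ERSE), ATTGG and CCACG with 1 base between them (ERSE-II), TGACGTGG (the core of the XBP1 element UPRE) and TGATGCAAT (an ATF4 element). The search covered the 250 bases before the start of each gene in RefSeq's promoters (GRCm38.p6), where 9 of the 10 genes had an entry. ERSE was found for Hspa5, for Hsp90b1 (2 copies) and for Ero1lb, beside 0.113% of all 32851 promoters, and ERSE-II was found for Herpud1, beside 0.0304%. None of these 9 held TGACGTGG or TGATGCAAT, which are in 0.563% and 0.167% of all promoters. The stretches that hold a motif are shown so that its spacing and distance can be read, with the motif in capitals and each written 5′ to 3′ on the strand of its gene.
Hspa5, chr2:34772020-34772049, plus strand, motif at -65 to -47 from the start: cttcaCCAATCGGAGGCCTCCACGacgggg
Hsp90b1, chr10:86705598-86705694, minus strand, motif at -212 to -194: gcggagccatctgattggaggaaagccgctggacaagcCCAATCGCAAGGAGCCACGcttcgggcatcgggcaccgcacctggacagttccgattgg
Hsp90b1, chr10:86705510-86705574, minus strand, motif at -107 to -89, reversed: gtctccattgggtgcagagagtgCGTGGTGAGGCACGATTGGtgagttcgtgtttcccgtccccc
Ero1lb, chr13:12565642-12565740, plus strand, motif at -201 to -183, reversed: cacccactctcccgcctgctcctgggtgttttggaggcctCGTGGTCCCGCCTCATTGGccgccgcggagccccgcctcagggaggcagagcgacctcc
Herpud1, chr8:94386337-94386427, plus strand, motif at -52 to -42: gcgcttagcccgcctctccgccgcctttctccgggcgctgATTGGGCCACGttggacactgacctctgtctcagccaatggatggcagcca
The Hspa5 stretch overlaps an exon annotated in GENCODE M21 and is kept short for that reason, and the others lie outside annotated exons. A reversed motif lies on the strand opposite to the gene, so its capitals read CGTGG to ATTGG. The 4 genes with a motif were at log2 fold changes of -0.32 (Hspa5), -0.10 (Hsp90b1), -1.15 (Ero1lb) and -0.41 (Herpud1). The other 5 with a promoter entry ran from -1.27 (Eif2ak3) to 0.31 (Xbp1), so genes with and without these letters covered a common range.

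The 2 oxidases transfer disulfide bonds to protein disulfide isomerase, and they stood apart from each other in level and in difference. Ero1lb (chromosome 13, 12565874 to 12611396) encodes the form known for its abundance in secretory cells such as those of the pancreas. It was at 2.63, 2.24, 1.68 and 1.91 CPM in PM2.5 replicates 9, 17, 18 and 21, against 5.22, 5.72, 3.82 and 4.08 CPM in PBS replicates 4, 10, 12 and 16. The groups were well apart, at 2.11 ± 0.409 CPM in the PM2.5 libraries and 4.71 ± 0.907 CPM in the PBS libraries (SD, n = 4 each), with a log2 fold change of -1.15 (SE 0.181). Without PM2.5 replicates 17 and 18, those with the neural transcripts, it was at -1.04 and not called by edgeR. Without PM2.5 replicates 9 and 21 instead, it was at -1.29 and called.

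Ero1l (chromosome 14, 45283087 to 45318771) encodes the widely expressed form, which is also raised by hypoxia. It was at 0.672, 0.660, 0.278 and 0.511 CPM with PM2.5, against 0.549, 0.662, 0.446 and 0.972 CPM with PBS. PM2.5 replicate 18 was the lowest and PBS replicate 16 the highest, the groups otherwise overlapped, and the log2 fold change was -0.31 (SE 0.298). Ero1lb had 3.39 to 6.07 counts for each Ero1l count in the PM2.5 libraries and 4.20 to 9.52 in the PBS libraries. These ranges overlapped through PM2.5 replicate 18, which had only 15 Ero1l counts, and PBS replicate 16.

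**Figure D2:**
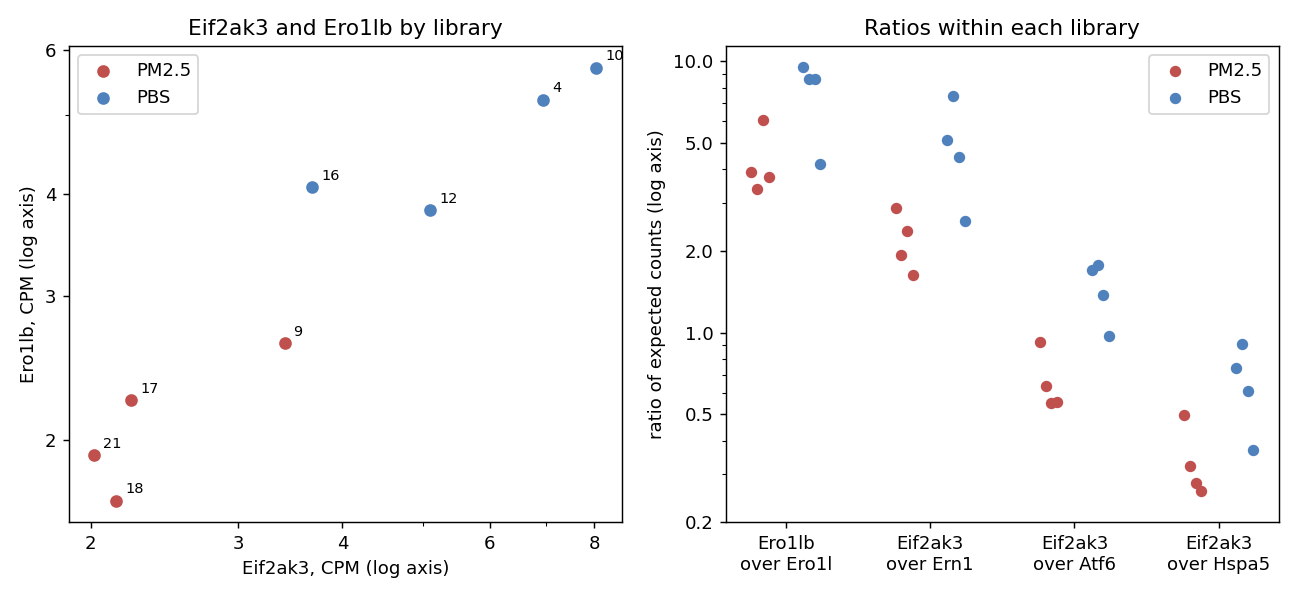
Left, CPM of Eif2ak3 (horizontal, log axis) against CPM of Ero1lb (vertical, log axis) in each library, numbered as in the labels. Right, ratios of expected counts within each library (log axis), PM2.5 left of PBS in each pair; PBS replicate 16 has the lowest PBS value in each of the 4 ratios.

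Herpud1 (chromosome 8, 94386438 to 94395377) encodes a membrane protein that helps the ubiquitin ligase complex degrade misfolded proteins. It was at 1.85, 1.94, 1.81 and 1.98 CPM in PM2.5 replicates 9, 17, 18 and 21, against 2.62, 3.27, 2.01 and 2.15 CPM in PBS replicates 4, 10, 12 and 16. In CPM, the PM2.5 libraries were nearly alike, with a coefficient of variation of 4.12% against 22.6% among the PBS libraries, and the highest of them bordered PBS replicate 12. In FPKM, PM2.5 replicates 9 and 21 (1.86 and 1.65) were above PBS replicate 12 (1.42). The log2 fold change was -0.41 (SE 0.173).

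Within the groups, Eif2ak3 and Ero1lb kept a similar order of libraries. PM2.5 replicate 9 held the most of both among the PM2.5 libraries, and PBS replicates 10 and 4 held the most of both among the PBS libraries. Over the 8 libraries, with each group's mean log2 CPM subtracted, their Pearson r was 0.837. That of Atf6 and Herpud1 was 0.826, while that of Eif2ak3 and Hspa5 was -0.556 and that of Atf6 and Xbp1 was -0.875. These values describe 8 points that share their libraries and their scaling. By the same measure, the genes most like Eif2ak3 among 1697 protein-coding genes above 5 CPM included Hnrnpa3 (0.978), Gna13 (0.940), Ube2d2a (0.940) and Cic (0.939). Those most like Hspa5 were Tubb4b (0.895), Ankfy1 (0.888), Srsf5 (0.822), Iqsec1 (0.806) and Ms4a1 (0.798). No test goes with these values.

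Per length and summed over transcripts, the chaperones Hspa5 and Hsp90b1 led the list, Ero1l and Sdf2l1 came last, and the sensors Atf6 and Ern1 lay in the lower part. Summed over transcripts, Hspa5 was at 2.69 ± 0.801 FPKM with PM2.5 and 5.08 ± 1.46 FPKM with PBS, followed by Hsp90b1 at 2.34 ± 0.938 FPKM with PM2.5 and 4.03 ± 1.06 FPKM with PBS (SD, n = 4 each here and below). Xbp1 was at 2.09 ± 0.485 FPKM with PM2.5 and 2.63 ± 0.648 FPKM with PBS, and Herpud1 at 1.43 ± 0.429 FPKM with PM2.5 and 2.84 ± 1.05 FPKM with PBS. Eif2ak3 stood at rank 5 with PM2.5, at 0.683 ± 0.375 FPKM, and at rank 3 with PBS, at 3.04 ± 1.5 FPKM. Ero1lb stood at rank 6 in both groups, at 0.495 ± 0.217 FPKM with PM2.5 and 1.64 ± 0.599 FPKM with PBS. Atf6 was at 0.453 ± 0.129 FPKM with PM2.5 and 0.763 ± 0.222 FPKM with PBS, and Ern1 at 0.240 ± 0.117 FPKM with PM2.5 and 0.418 ± 0.180 FPKM with PBS. Last came Ero1l, at 0.185 ± 0.0311 FPKM with PM2.5 and 0.340 ± 0.173 FPKM with PBS, and Sdf2l1, at 0.183 ± 0.0763 FPKM with PM2.5 and 0.233 ± 0.145 FPKM with PBS. With PM2.5, neighbours differed by more than the larger of their SDs for Xbp1 and Herpud1, for Herpud1 and Eif2ak3 and for Atf6 and Ern1. With PBS, they did so for Xbp1 and Ero1lb, for Ero1lb and Atf6 and for Atf6 and Ern1, and the remaining neighbours lay within that spread. All of these FPKM means were lower with PM2.5, in libraries where haemoglobin took 86.7% to 88.6% of the counts, against 82.3% to 87.9% in the PBS libraries.

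Summed FPKM gave weight to short transcripts with few counts. In PBS replicate 4, 6 counts of a 347-base Eif2ak3 transcript with a retained intron added 1.33 FPKM, while 630.2 counts of the 4513-base Eif2ak3-201 made 2.07 FPKM. On Eif2ak3-201 alone the level was 0.420 ± 0.214 FPKM with PM2.5 and 1.49 ± 0.732 FPKM with PBS, and in the PBS group the leading transcripts of Xbp1 (1.93 ± 0.446 FPKM) and Herpud1 (1.56 ± 0.597 FPKM) were then above it. Likewise, 0.68 of a count of a 326-base Ero1l transcript gave 0.19 of the 0.23 FPKM of Ero1l in PM2.5 replicate 18. On leading transcripts alone, Sdf2l1 was no longer last in mean FPKM. Sdf2l1-201 was at 0.183 ± 0.0763 FPKM with PM2.5 and 0.233 ± 0.145 FPKM with PBS. Ero1l-201 was at 0.110 ± 0.0577 and 0.195 ± 0.0839 FPKM, and Ern1-201 at 0.1025 ± 0.0499 and 0.185 ± 0.0625 FPKM, in the same order.

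Each gene was counted mainly in 1 protein-coding transcript, and the leading one was common to both groups. Eif2ak3-201 took 82.8% ± 9.78 of the Eif2ak3 counts with PM2.5 and 81.9% ± 5.25 with PBS. Transcripts annotated as retaining an intron took 4.12% to 27.4% of the Eif2ak3 counts in the PM2.5 libraries and 13.2% to 22.7% in the PBS libraries, so the PM2.5 range enclosed the PBS range. Ero1lb-201 took 86.7% ± 3.82 of the Ero1lb counts in the PM2.5 libraries and 82.7% ± 4.99 in the PBS libraries. Hsp90b1-201 took 97.4% ± 1.45 of the Hsp90b1 counts in the PM2.5 libraries and 90.6% ± 3.62 in the PBS libraries (SD, n = 4 each). For Ern1 the share of the leading Ern1-201 was 72.1% ± 11.1 with PM2.5 and 77.6% ± 8.41 with PBS, the least of the 10 genes. Transcript counts are estimates where transcripts share sequence, and the deposited table does not give their error.

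With all libraries kept and the filter on low counts, none of the other tested genes of the unfolded protein response was called. Their distance from Eif2ak3 and Ero1lb is not read as a result, because low values guided the choice of those genes. Of 64 listed genes, 58 were tested, and with edgeR 0 were called in either direction, beside 1.6% of all genes tested. At an unadjusted p under 0.05 there were 4, of which 2 were higher and 2 lower, and DESeq2 called 0 as well. Chac1, Ern2, Wfs1, Gpx7, Gpx8 and Derl3 were too low to test. The median log2 fold change over the 58 was 0.16, with 20 negative, beside a median of 0.04 over all genes tested. With library totals these medians were -0.40 over the 58 and -0.52 over all genes, so the sign of the list's median depends on the scaling.

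The list for the PERK branch also holds the related eIF2 kinases Eif2ak1, Eif2ak2 and Eif2ak4. Of its 11 tested genes, these included, 0 were called, the median was 0.28 and 2 were negative. Atf4, the transcription factor translated when eIF2 is phosphorylated, was at 24.6, 54.7, 14.5 and 20.6 CPM in PM2.5 replicates 9, 17, 18 and 21, against 14.5, 11.3, 11.6 and 19.8 CPM in PBS replicates 4, 10, 12 and 16. PM2.5 replicate 17 stood far above the rest, the groups overlapped, and the log2 fold change was 1.00 (SE 0.317, edgeR adjusted p = 0.121). With no filter on low counts it was called, at 0.98 (edgeR adjusted p = 0.000157). Asns, asparagine synthetase and a target of ATF4, was at 7.13, 13, 4.64 and 6.0 CPM with PM2.5, against 4.02, 2.44, 3.42 and 7.56 CPM with PBS. Its log2 fold change was 0.81 (SE 0.313, edgeR adjusted p = 0.196), and it was called without PBS replicate 16 (1.21, edgeR adjusted p = 0.0348) and with no filter on low counts (0.79, edgeR adjusted p = 0.000904). The related eIF2 kinases were at 0.29 (SE 0.215) for the haem-regulated Eif2ak1, 0.33 (SE 0.233) for the double-stranded RNA sensor Eif2ak2 and -0.23 (SE 0.304) for the amino acid sensor Eif2ak4, none called.

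In the IRE1 and XBP1 branch, 0 of 13 tested genes were called and the median was 0.18. Sec61g and Sec61b, subunits of the channel through which proteins enter the endoplasmic reticulum, were at 0.48 (SE 0.246) and 0.30 (SE 0.190). In the ATF6 branch, 0 of 9 were called and the median was 0.14. Mbtps1, the site-1 protease that cuts ATF6, was at 2.44 ± 0.374 CPM with PM2.5 and 3.19 ± 0.320 CPM with PBS, or -0.39 on the log2 scale (SE 0.158, edgeR adjusted p = 0.214). Mbtps2, the site-2 protease, was at 0.35 (SE 0.224).

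Among genes of disulfide formation, 0 of 11 were called, the median was 0.15, and the lowest was at -0.09. Pdia3, a protein disulfide isomerase of glycoproteins, was at 0.28 (SE 0.148) and the oxidase Qsox1 at 0.33 (SE 0.202). Among genes of degradation from the endoplasmic reticulum, 0 of 14 were called, with a median of 0.13. Edem3, which trims mannose from misfolded glycoproteins, was at 1.24 ± 0.107 CPM with PM2.5 and 1.64 ± 0.273 CPM with PBS, or -0.41 on the log2 scale (SE 0.177, edgeR adjusted p = 0.237). Syvn1, the HRD1 ubiquitin ligase that Herpud1 assists, was at -0.37 (SE 0.192).

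**Figure D3:**
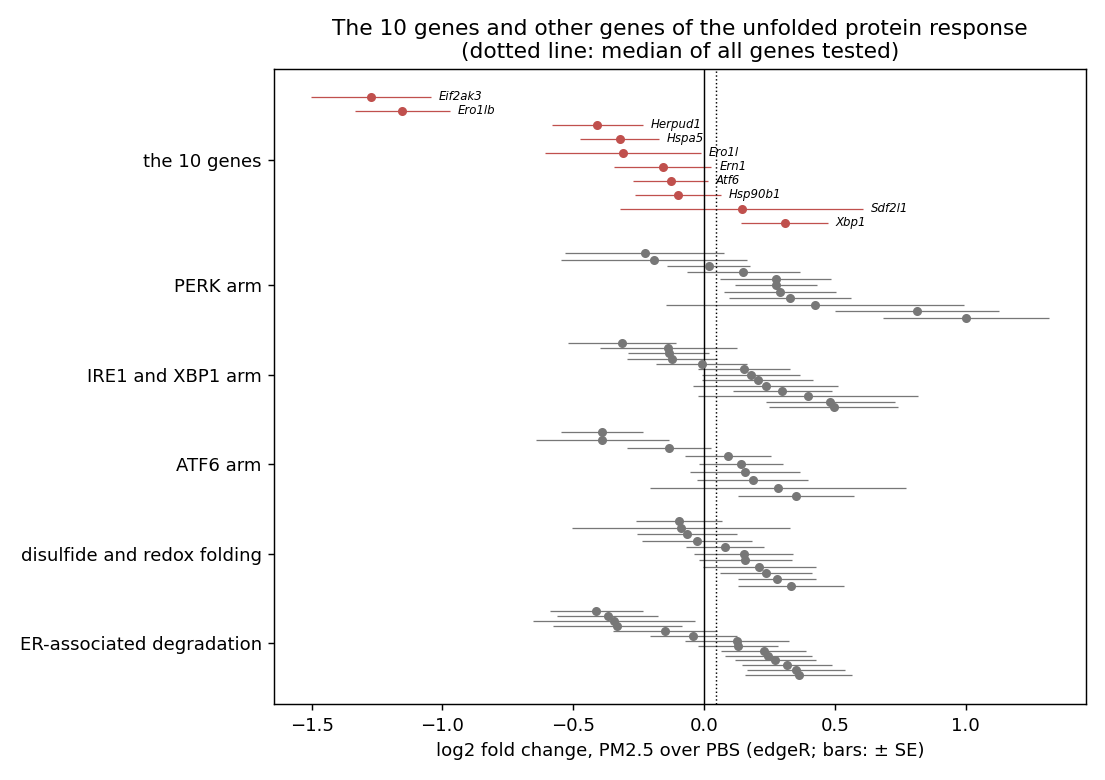
Log2 fold changes (PM2.5 over PBS, TMM scaling) with their SE, for the 10 genes in red and the 58 other tested genes in grey, by branch; the dotted line is the median of all genes tested (0.04). Eif2ak3 and Ero1lb lie below -1, and the lowest of the other tested genes is at -0.41. Low values guided the choice of Eif2ak3 and Ero1lb, so nothing is read from this gap. The PERK arm also holds the related kinases Eif2ak1, Eif2ak2 and Eif2ak4.

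Markers of several blood cell types differed between the groups under TMM scaling, in which all marker sums are given. In bulk RNA, fewer cells of a type and less RNA per cell cannot be told apart. The 10 B cell markers summed to 38.5 to 49.7 CPM in the PM2.5 libraries and 44.7 to 74.3 CPM in the PBS libraries. No marker was at 0, and 3 of 10 (Ebf1, Blk and Bank1) were called lower with edgeR, beside 1.14% of all genes tested. In PBS replicates 4, 10, 12 and 16 the B cell sums were 63.9, 74.3, 44.7 and 68.1 CPM. In the same order, Eif2ak3 was at 6.95, 8.05, 5.09 and 3.68 CPM and Ero1lb at 5.22, 5.72, 3.82 and 4.08 CPM. Herpud1 was at 2.62, 3.27, 2.01 and 2.15 CPM. Whether these levels go with the B cell sums was not tested. The 9 plasma cell markers summed to only 1.69 to 5.01 CPM in the PM2.5 libraries and 1.42 to 3.12 CPM in the PBS libraries. Of these, Tnfrsf17 was at 0 in all 8 libraries. Of the 6 tested, 2 were called higher, beside 0.463% of all genes tested.

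The 9 T cell markers summed to 13.7 to 19.3 CPM with PM2.5 and 10.1 to 17.1 CPM with PBS. With edgeR 0 were called (1 at an unadjusted p under 0.05), beside 1.6% of all genes tested in either direction. The 7 natural killer cell markers summed to 4.03 to 7.88 CPM with PM2.5 and 2.66 to 3.86 CPM with PBS. Of the 7, 1 was called higher, beside 0.463% of all genes tested. The 10 neutrophil markers summed to 28.6 to 56.0 CPM with PM2.5 and 14 to 27.6 CPM with PBS, with 5 of the 8 tested called higher, beside the same 0.463%. The 9 monocyte markers summed to 59.8 to 88.7 CPM with PM2.5 and 36.7 to 63.1 CPM with PBS, with 3 of the 9 called higher, beside the same 0.463%. Under TMM scaling, the sums did not overlap for natural killer cells and neutrophils, and they did for monocytes. Relative to library totals, the sums of natural killer cells and neutrophils would overlap too. Among single genes tested, 3.02% had all PM2.5 libraries above all PBS libraries. The 8 platelet markers summed to 611.1 to 993.7 CPM with PM2.5 and 514.6 to 938.7 CPM with PBS, with 0 called by edgeR and 0 at an unadjusted p under 0.05. The 11 erythroid markers in the table summed to 17938 to 31288 CPM with PM2.5 and 14502 to 23733 CPM with PBS. With edgeR 0 were called (4 at an unadjusted p under 0.05), and PM2.5 replicates 17 and 18 were highest at 30568 and 31288 CPM. That order comes from the TMM scaling. Relative to library totals, PM2.5 replicates 17 and 18 would not be highest, so no higher erythroid level with PM2.5 is read from these sums. With the mean of the erythroid markers in the model, Eif2ak3 was at -0.87 and Ero1lb at -0.89, and edgeR called 0 genes (950 at an unadjusted p under 0.05). This mean is taken from TMM-scaled levels, so it also carries the scaling and is not a measure of cells alone. The part of the other cell types in the differences of the 10 genes was not tested.

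**Figure D4:**
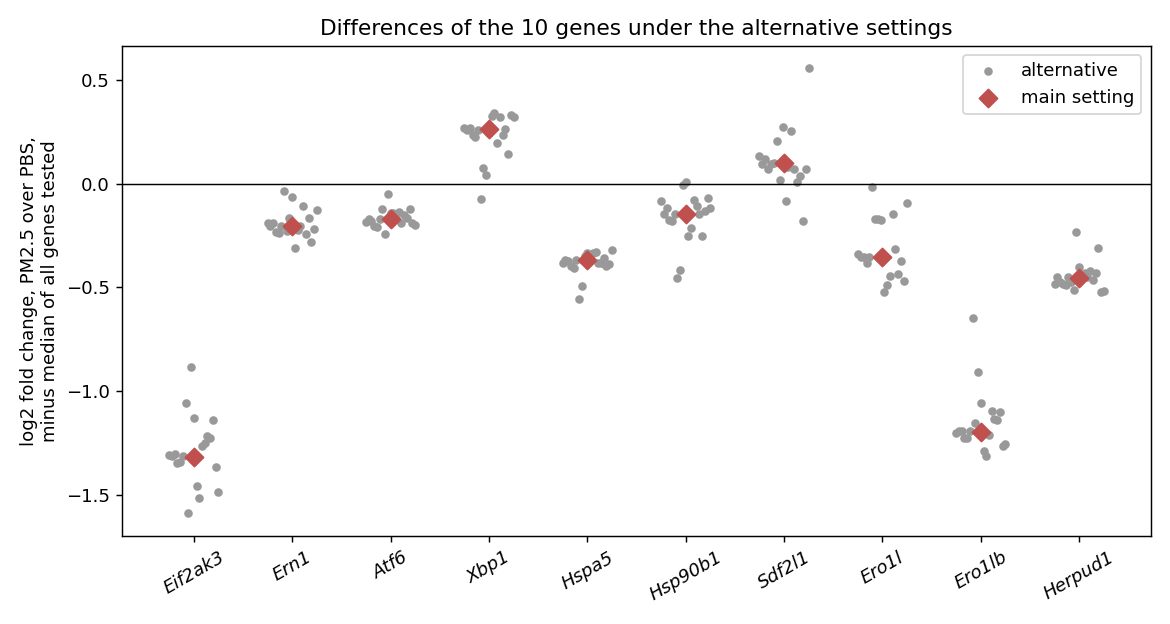
Log2 fold changes (PM2.5 over PBS) of the 10 genes minus the median of all genes tested, in the main setting (red) and in the alternatives (grey), which cover scaling, filters, tools, a covariate and libraries left out. Eif2ak3 ran from -1.59 to -0.88 and Ero1lb from -1.31 to -0.65, while Xbp1, Hsp90b1 and Sdf2l1 lay on both sides of 0.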

How the data were processed

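The 8 buffy coat libraries kept strand information through dUTP marking, per the labels' protocols. Tools named in the submitters' processing notes are HISAT2 2.0.1 with the build GRCm38, cutadapt 1.9.1 and bcl2fastq 2.17.1.14. What counted the reads, and with which strand setting, the labels do not say, so overlapping genes may not be told apart. The authors deposited expected counts, estimated per Ensembl transcript and not normalized. They also deposited FPKM, which divide by transcript length and library size, per the file headers.

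Of 118783 transcripts, 116710 matched GENCODE M21 and were summed to 35944 genes, leaving out 0.0266% to 0.0532% of each library. The sums were rounded. The two-sided quasi-likelihood test of edgeR 4.0.16 (R 4.3.3) followed filterByExpr (minimum count 10) and TMM scaling, with Benjamini-Hochberg adjustment over all genes tested and a threshold of 0.05. Each SE is approximate: the absolute log2 fold change divided by the root of its F. Every pair of libraries differed by more than sampling noise. The procedure was tried on simulated counts with the same dispersion for every gene, a simpler setting than these libraries. That trial says nothing about the calls made here.

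The 10 genes, the pathway lists and the marker lists were chosen with earlier results of these data known. Pathway genes named are those called in a list or, with none called, its 2 of smallest p above 1 CPM, and the eIF2 kinases were added after their values were seen. For Eif2ak3 and Hspa5, the 5 genes of highest r were to be named, of which 1 is not reported here. Snap25, Syt1, Camk2a, Slc1a2, Map2 and Mog were named after their values were seen. Alternatives covered scaling (library totals, median ratio, haemoglobin removed), filters, DESeq2 1.42.0, limma 3.58.1 on log2(FPKM + 1) and log2(FPKM + 0.1), an erythroid covariate and libraries left out.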

Additional observations from a re-analysis of the deposited data

Results flagged for a closer look

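Eif2ak3 in PM2.5 replicate 9 was at 3.41 CPM, while the other 3 PM2.5 libraries lay between 2.02 and 2.24 CPM. Its gap to the nearest library was 0.844 of the range of the group, above Dixon's critical value for 4 samples. This was 1 of 20 groups tested in this way, and chance flags about 1 in 20.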

How the results depend on the processing

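Eif2ak3, Ern1, Atf6, Hspa5, Ero1l, Ero1lb and Herpud1 were negative in every alternative that gave a value (18 for Ero1l, 19 for the others). Xbp1 was negative in 4 of 19, Hsp90b1 in 17 of 19 and Sdf2l1 in 6 of 18. Against 166 genes called, 483 were called with library totals, 624 with no filter on low counts (313 higher, 311 lower), 373 with DESeq2 and 0 with limma on log2(FPKM + 1) or log2(FPKM + 0.1) (2100 and 2126 at an unadjusted p under 0.05). The erythroid covariate gave 0 (950 unadjusted), leaving out PM2.5 replicates 17 and 18 gave 8, and leaving out 9 and 21 gave 189. Leaving out single libraries gave 31 to 192 calls, with 55 without PM2.5 replicate 17, 69 without 18, 85 without 21, 87 without PBS replicate 4 and 31 without PBS replicate 10. Of the 10 genes, 0 were called in place of 2 with either limma fit, with the covariate and without PM2.5 replicates 17 and 18, and 1 to 2 without single libraries. Without PM2.5 replicates 9 and 21, 2 were called. Of the pathway genes, 2 (Atf4 and Asns) in place of 0 were called with no filter, and 0 to 1 without single libraries. Haemoglobin removal moved the median of all genes to -0.30 and left 10 higher and 216 lower. The cause of these shifts was not tested. No paired analysis was possible because the groups share no replicate number. Sdf2l1 and Ero1l rest on 6 to 107 counts per library, and neither passed the filter of 1 CPM in 4 libraries.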
